A study of Mus musculus with 6 samples.

Results

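The 7 mRNAs described here belong to the p53, Mdm2 and p21 axis. They are Trp53, Mdm2, Mdm4, Cdkn1a, Cdkn1b, Sesn2 and Tnfrsf10b, taken from a list of gene symbols and matched to the Ensembl identifiers of the count tables. All 7 were found among 53379 genes in the tables, and all 7 were among the 16929 genes with enough reads to be tested. The libraries are 3 of RNA pulled down with an antibody against hnRNPK (hnRNPK IP) and 3 of total RNA from the lysate. Every library came from Min6, a mouse insulinoma cell line, at passage 31, after 30 hours in 25 mM glucose and 500 µM palmitic acid, which the labels name glucolipotoxicity. Cells without this treatment, and a pull-down with a control antibody, were not analysed here, so a higher level in the IP is a difference from total RNA and may include RNA held by beads or antibody. Whether the 3 libraries of a kind derive from 3 cultures is not said in the labels. A p-value given here therefore measures only library-to-library spread, which may be technical.

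p53, encoded by Trp53, is a transcription factor that halts the cell cycle or starts apoptosis when DNA is damaged or a cell is stressed. Mdm2 is both its target and its main ubiquitin ligase, so that the pair form a negative feedback loop, and Mdm4 is a relative of Mdm2 that binds p53 and holds down its activity. Cdkn1a encodes p21, the cyclin-dependent kinase inhibitor through which p53 stops the cycle. hnRNPK is an RNA-binding protein that prefers runs of C, and it is also known as a protein partner of p53 in the DNA damage response. Min6 cells descend from insulinomas of mice whose beta cells expressed the simian virus large T antigen, a protein known to bind p53.

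Because hnRNPK is known for binding C-rich RNA, the stretch of 30 bases with the most C in the 3' UTR of each mRNA is shown, from the GENCODE M21 transcript with the longest 3' UTR. Runs of 3 or more C are in capitals, all sequences are given 5' to 3' along the mRNA, and positions are those of GRCm38, the assembly also called mm10. The stretches are descriptions of sequence and were not shown to be bound.
Trp53: CCCgtCCCCatcaccagcctCCCCCtctcc
Cdkn1a: caCCCaaCCCCCCtCCCCCCattCCCtgcc
Sesn2: ttcatcagCCCCCCaacctgcctCCCaCCC
Tnfrsf10b: CCCtCCCCCCCCCtgCCCCCCgCCCtgctc
Cdkn1b: aactgacaCCCCatctgggctgcgctCCCC
Mdm4: gCCCtggaaaaCCCCagggcctgCCCCCCC
Mdm2: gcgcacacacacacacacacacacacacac
They lie on the plus strand of chr11:69591444-69591473 (Trp53), chr17:29099752-29099781 (Cdkn1a), chr14:69783560-69783589 (Tnfrsf10b) and chr6:134922108-134922137 (Cdkn1b). On the minus strand they lie at chr4:132493213-132493242 (Sesn2), chr1:132990251-132990280 (Mdm4) and chr10:117689530-117689559 (Mdm2). Tnfrsf10b had 23 C in its 30 bases, Cdkn1a 21, Trp53 20 and Sesn2 18, while Mdm4 had 16, Mdm2 15 and Cdkn1b 14. The richest stretch of Mdm2 was a CA repeat with no run of C, but its 3' UTR held a run of 5 C elsewhere. A run at least that long was present in the 3' UTR of 52.9% of 13366 tested genes.

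Of the 7 mRNAs, 6 were higher in the hnRNPK IP than in total RNA, and Mdm2 alone was lower. The difference was 7.22-fold for Tnfrsf10b, 4.44-fold for Cdkn1a, 3.74-fold for Trp53, 3.37-fold for Sesn2, 2.24-fold for Cdkn1b and 1.97-fold for Mdm4, and Mdm2 was 2.42-fold lower. All 7 passed the edgeR quasi-likelihood test at a Benjamini-Hochberg adjusted p under 0.05, where 62.4% of all tested genes were called, 28.9% as enriched in the IP and 33.6% as depleted. At least 2-fold were 5 of the enriched members, all but Mdm4, and Mdm2, where 19.6% of tested genes were enriched and 24.5% depleted by that much. In all 7 the IP and total RNA libraries did not overlap, as was so for 71.4% of tested genes, with the IP higher in 32.2% and lower in 39.3%. The members' median log2 fold change, IP minus total RNA, was 1.75, beside −0.07 over all tested genes. A call by itself was thus common in these libraries, and the members are described by their sizes and order.

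**Figure D1:**
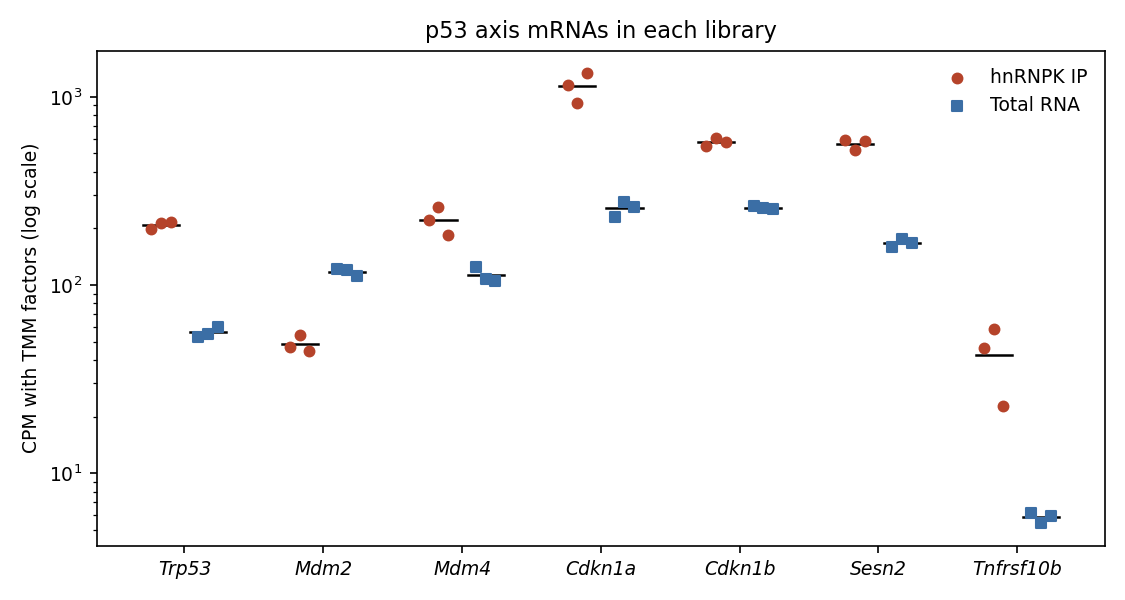
Normalised read counts (CPM with TMM factors, log axis) of the 7 mRNAs in each of 3 hnRNPK IP libraries (circles) and 3 total RNA libraries (squares), with group means as bars. IP libraries lie above total RNA libraries for 6 mRNAs and below them for Mdm2, and the IP libraries of Tnfrsf10b are spread from 22.9 to 58.1 CPM.

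Total counts ran from 38764925 to 46222181 in the IP libraries and from 46185284 to 52735957 in total RNA. The IP libraries varied more, with a biological coefficient of variation of 43.1% against 12.2% in total RNA. The edgeR fit gave each gene the same dispersion in both groups, so its SE and p-values do not model this difference in spread. IP library 3 detected more genes (21306) than IP libraries 1 and 2 (18485 and 17471). All 14 beta cell markers were detected, and their summed CPM was 8081 to 9363 in the IP and 22775 to 32244 in total RNA. The lower sum in the IP did not hold for most of them, as 8 were enriched and 6 depleted (median log2 fold change 0.32). The single marker genes given by name were chosen after their values were seen. Of 9 acinar and duct markers 6 had no read in any library, and the list summed to 0.118 to 1.21 CPM in the IP and 0.434 to 0.631 CPM in total RNA. Stromal, endothelial and immune markers summed to 6.64 to 8.80 CPM in the IP and 2.96 to 4.34 in total RNA. Of these 10 genes 5 had enough reads to be tested, the collagen genes Col1a1 and Col3a1 were enriched and Cd3e had no read. For the level of a marker in bulk RNA, more cells with it and more of its RNA per cell cannot be told apart. This concerns levels and not the difference between IP and total RNA, which were both taken from lysate of Min6 cells. The part of such RNA in the members' values was not tested. The 9 markers of other islet cells summed to 588 to 882 CPM in the IP and 2144 to 3236 CPM in total RNA. Of 7 tested, Ttr, Ppy and Irx2 were depleted, 4 did not pass, among them the glucagon gene Gcg with 145 CPM (IP) and 151 CPM (total RNA), and Hhex had no read.

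Trp53 (ENSMUSG00000059552.13, chromosome 11, 69580359 to 69591873, plus strand) had 6757, 7027 and 8629 reads in IP libraries 1 to 3 and 3295, 2953 and 3197 in total RNA libraries 1 to 3. As normalised counts these were 200, 213 and 215 CPM in the IP and 52.9, 54.8 and 60.2 CPM in total RNA. The lowest IP library was well above the highest total RNA library. IP libraries averaged 209 ± 8.50 CPM and total RNA libraries 56.0 ± 3.78 CPM (SD, n = 3 each), with a log2 fold change of 1.90 ± 0.09 (SE; edgeR, adjusted p = 2.32e-06). Of all tested genes, 8.14% had a higher log2 fold change.

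Mdm2 (ENSMUSG00000020184.15, chromosome 10, 117688875 to 117710758, minus strand), the ubiquitin ligase that marks p53 for degradation, went the other way. It had 47.1, 54.5 and 44.6 CPM in the IP libraries and 121, 121 and 111 CPM in the total RNA libraries. All IP values lay below all total RNA values. IP libraries averaged 48.8 ± 5.13 CPM and total RNA libraries 118 ± 5.72 CPM (SD, n = 3 each). The log2 fold change was −1.27 ± 0.11 (SE; edgeR, adjusted p = 2.35e-05), and 23.5% of tested genes lay lower still. Its reads were 1595, 1797 and 1790 in the IP against 7560, 6501 and 5902 in total RNA, so counting error was small beside the difference.

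Mdm4 (ENSMUSG00000054387.13, chromosome 1, 132959484 to 133030561, minus strand) lacks the ligase activity of Mdm2 but shares its fold for binding p53. It had 222, 259 and 185 CPM in the IP libraries and 125, 108 and 105 CPM in the total RNA libraries. The groups did not overlap, and IP library 3 and total RNA library 1 came nearest to each other. IP libraries averaged 222 ± 37.0 CPM and total RNA libraries 112 ± 10.5 CPM (SD, n = 3 each). The log2 fold change was 0.98 ± 0.14 (SE; edgeR, adjusted p = 0.000389), the smallest among the 6 enriched members. An offset for gene length brought it to 0.28, and library totals without TMM factors brought it to 0.54, each with the call kept (edgeR, adjusted p = 0.00773 and 0.00868). Mdm4 had the longest annotated exon sequence of the 7, at 14798 nt when the exons of its 14 transcripts are joined.

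The relatives Mdm2 and Mdm4 stood in a different proportion in the 2 kinds of RNA. The ratio of their counts within a library shows this without any scaling between libraries. It does not remove a trend with gene length. Under the length offset the log2 fold changes were −1.32 for Mdm2 and 0.28 for Mdm4, beside −1.27 and 0.98 in the main fit. The Mdm2/Mdm4 ratio was 0.212, 0.210 and 0.241 in IP libraries 1 to 3 and 0.976, 1.12 and 1.05 in total RNA libraries 1 to 3. The log2 ratio averaged −2.18 ± 0.11 over IP libraries and 0.07 ± 0.10 over total RNA libraries (SD, n = 3 each), a difference of −2.25 (exact permutation test, two-sided, p = 0.10, adjusted over 5 pairs p = 0.125). With 3 libraries against 3, 0.10 is the smallest p this test can give, so none of the 5 ratios could pass 0.05. The Mdm2/Trp53 ratio was 0.236, 0.256 and 0.207 in the IP and 2.29, 2.20 and 1.85 in total RNA. Not corrected for length, Mdm2 reads were fewer than Trp53 reads in all IP libraries and more numerous in all total RNA libraries, with a 9.06-fold shift of the ratio (exact permutation p = 0.10, adjusted p = 0.125).

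**Figure D2:**
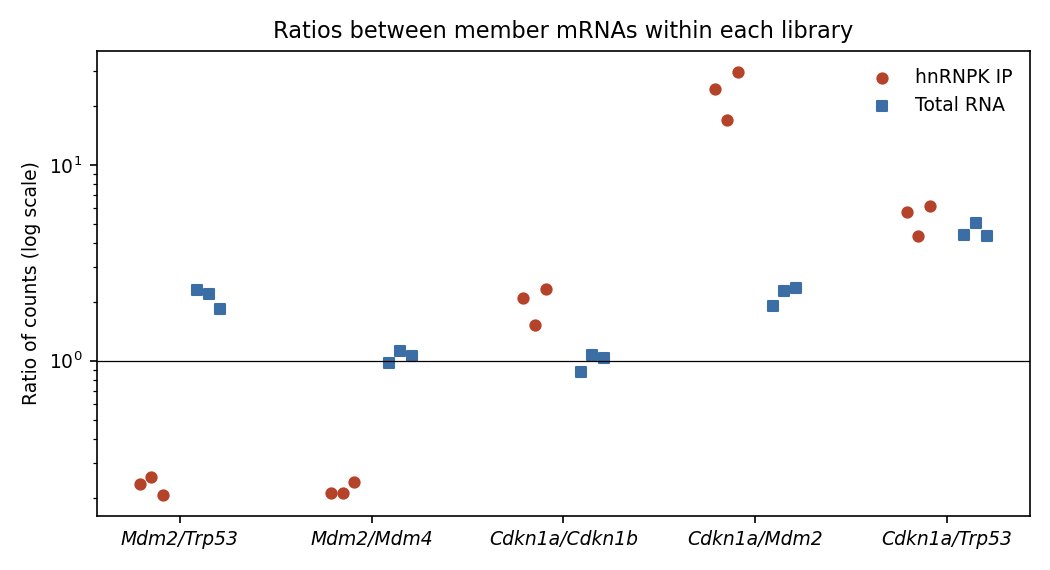
Ratios of raw read counts between 2 member mRNAs within the same library (log axis), for 3 hnRNPK IP libraries (circles) and 3 total RNA libraries (squares). The groups are apart for 4 ratios, furthest for Cdkn1a/Mdm2 at 16.9 to 29.9 in the IP and 1.90 to 2.35 in total RNA, and they overlap for Cdkn1a/Trp53.

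Cdkn1a (ENSMUSG00000023067.13, chromosome 17, 29090976 to 29100727, plus strand) had the highest level per length of the 7 mRNAs in the IP. It had 1151, 922 and 1333 CPM in the IP libraries and 231, 275 and 261 CPM in the total RNA libraries. The lowest IP library was more than 3 times as high as any total RNA library, and IP library 3 was the highest. IP libraries averaged 1136 ± 206 CPM and total RNA libraries 256 ± 22.5 CPM (SD, n = 3 each). The log2 fold change was 2.15 ± 0.15 (SE; edgeR, adjusted p = 8.63e-06), with 5.09% of tested genes higher. This mRNA is short for an enriched gene, with a longest annotated transcript of 2080 nt, where the median over all enriched genes was 4228.5 nt and over all depleted genes 2386 nt.

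Cdkn1b (ENSMUSG00000003031.14, chromosome 6, 134920401 to 134925513, plus strand) encodes p27, the relative of p21 that holds cells out of the cycle and is not a classical p53 target. Its CPM were 550, 605 and 574 in the IP libraries and 263, 256 and 252 in the total RNA libraries. Libraries of a group were close to each other and the groups lay apart, averaging 576 ± 28.0 CPM (IP) and 257 ± 5.43 CPM (total RNA; SD, n = 3 each). The log2 fold change was 1.16 ± 0.08 (SE; edgeR, adjusted p = 7.70e-06), and 0.73 with library totals alone. The Cdkn1a/Cdkn1b ratio of reads was 2.10, 1.52 and 2.32 in the IP libraries and 0.879, 1.07 and 1.03 in the total RNA libraries, a difference in log2 ratio of 0.98 (exact permutation p = 0.10, adjusted p = 0.125). The Cdkn1a/Mdm2 ratio shifted most, by 10.7-fold, while Cdkn1a/Trp53 was 5.77, 4.32 and 6.19 in the IP and 4.36, 5.02 and 4.33 in total RNA, which overlap (exact permutation p = 0.40, adjusted p = 0.40).

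Sesn2 and Tnfrsf10b are stress-induced genes that p53 can switch on. Sesn2 (ENSMUSG00000028893.8, chromosome 4, 132492032 to 132510501, minus strand) encodes sestrin 2, a leucine sensor that restrains mTORC1. It had 586, 519 and 579 CPM in the IP libraries and 158, 175 and 167 CPM in the total RNA libraries. The groups were far apart, averaging 561 ± 36.6 CPM (IP) and 167 ± 8.31 CPM (total RNA; SD, n = 3 each), with a log2 fold change of 1.75 ± 0.09 (SE; edgeR, adjusted p = 2.71e-06).

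Tnfrsf10b (ENSMUSG00000022074.6, chromosome 14, 69767472 to 69784411, plus strand) encodes the mouse death receptor for the ligand TRAIL. It had 1563, 1915 and 917 reads in the IP libraries, against 385, 293 and 317 reads in the total RNA libraries, the fewest of the 7 mRNAs in total RNA. The levels were 46.2, 58.1 and 22.9 CPM in the IP libraries and 6.19, 5.44 and 5.97 CPM in the total RNA libraries. IP library 3, the highest of the IP libraries for Cdkn1a, was the lowest for Tnfrsf10b, and the coefficient of variation of Tnfrsf10b in the IP was 42.3%, beside 4.06% to 18.2% for the other 6. All 3 IP libraries were still above all total RNA libraries, averaging 42.4 ± 17.9 CPM (IP) and 5.86 ± 0.385 CPM (total RNA; SD, n = 3 each). The log2 fold change was 2.85 ± 0.33 (SE; edgeR, adjusted p = 0.000126), rank 165 of 16929 from the highest, and leaving out any 1 library moved it between 2.54 and 3.08.

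**Figure D3:**
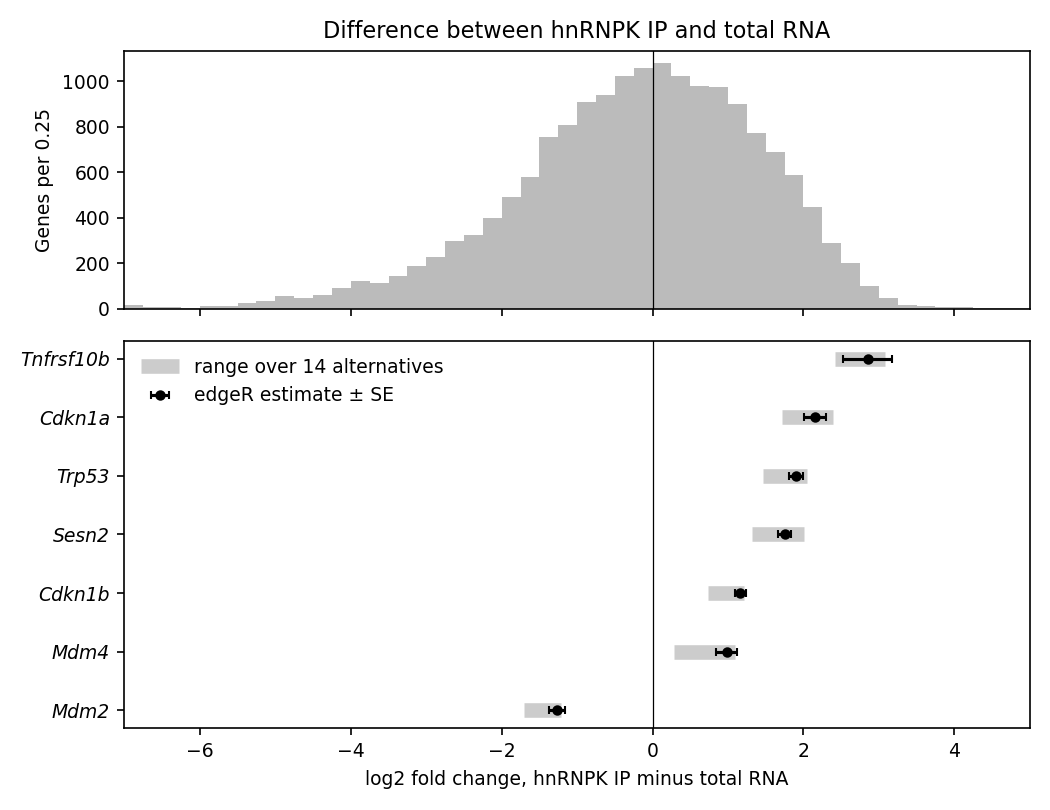
Upper panel, number of tested genes per bin of log2 fold change (hnRNPK IP minus total RNA), with 48 genes below −7 and 8 above 5 outside the axis. Lower panel, the edgeR estimate of each member with its SE (points and whiskers, n = 3 libraries a group) and its range over 14 alternative analyses (grey bars), in which 6 members stay above 0 and Mdm2 stays below it.

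Other mRNAs of interest to the study are given for comparison. Jund, an AP-1 factor, had a log2 fold change of 0.77 ± 0.08 and Ddx3x, an RNA helicase, of 0.47 ± 0.08, while Hnrnpk itself had −0.42 ± 0.11 (SE, n = 3 libraries a group). Jund stood at 0.33 with library totals alone and at 1.69 with the offset for gene length, above Mdm4 (0.28) and Cdkn1b (1.198) under that offset. Ddx3x lost its call with library totals alone, at 0.04. Hnrnpk stood at −0.85 with library totals alone and lost its call without total RNA library 2 (−0.35) or 3 (−0.37).

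Levels of different mRNAs can be compared only per length, here as CPM per kb of joined exons. In the IP the order of these levels was Cdkn1a (320 ± 58.0 CPM per kb), Sesn2 (162 ± 10.5), Cdkn1b (127 ± 6.15), Trp53 (51.7 ± 2.10), Mdm4 (15.01 ± 2.50), Mdm2 (9.59 ± 1.01) and Tnfrsf10b (7.77 ± 3.29; SD, n = 3). Mdm2 and Tnfrsf10b overlapped between IP libraries, and no other neighbours in this order did. In total RNA the order was Cdkn1a (72.0 ± 6.33 CPM per kb), Cdkn1b (56.5 ± 1.19), Sesn2 (47.9 ± 2.39), Mdm2 (23.2 ± 1.12), Trp53 (13.8 ± 0.935), Mdm4 (7.60 ± 0.706) and Tnfrsf10b (1.08 ± 0.071; SD, n = 3), and no neighbours overlapped. Mdm2 had 9.59 ± 1.01 CPM per kb in the IP, below Trp53 and Mdm4, and 23.2 ± 1.12 CPM per kb in total RNA, above both (SD, n = 3 each). Divided instead by the longest transcript, the levels of Trp53 and Mdm4 in total RNA overlapped, and the order in each group was the same.

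The C content of the 3' UTR differed among the members, from 32.6% in Trp53, 29.5% in Sesn2, 28.0% in Cdkn1a and 25.1% in Tnfrsf10b to 20.95% in Mdm4, 18.8% in Mdm2 and 18.1% in Cdkn1b. The median over 13292 tested genes was 22.04%. The 4 members above that median were the 4 with the highest log2 fold changes, and Cdkn1b and Mdm2, with nearly the same content, had log2 fold changes of 1.16 and −1.27. A 3' UTR stretch of 30 bases with at least as many C as in Tnfrsf10b was present in 1.82% of 13366 tested genes. The corresponding share was 6.14% for Cdkn1a, 10.0% for Trp53, 23.7% for Sesn2, 46.9% for Mdm4, 59.9% for Mdm2 and 71.4% for Cdkn1b. A longer 3' UTR has more chances to hold such a stretch, and these were 565 nt long in Trp53, 1334 in Cdkn1a, 1335 in Mdm2 and 5436 in Mdm4.

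Occurrences of CCCC on the mRNA strand, counted with overlaps, per kb of 3' UTR were 19.5 in Trp53, 17.2 in Cdkn1a, 11.4 in Tnfrsf10b, 11.3 in Sesn2, 5.82 in Cdkn1b, 3.00 in Mdm2 and 2.94 in Mdm4, with a median of 3.37 over tested genes. Cdkn1b and Mdm2 had their most C-rich sequence elsewhere, as the richest stretches of 30 bases in other regions show, again with runs of 3 or more C in capitals.
Cdkn1b coding: ctacaggCCCCCgcgCCCCCCCaagagcgc
Cdkn1b 5' UTR: cctcctcctgcctcctCCCCtCCCttCCCC
Mdm2 5' UTR: ggCCCCggccgcggggcctccgcgctCCCC
The first is at chr6:134921183-134921212 and the second at chr6:134920617-134920646 (plus strand), and the last is at chr10:117710585-117710614 (minus strand). The coding sequence of Cdkn1b held 15.2 CCCC per kb, where the median was 4.02 and 97.2% of tested genes had less, and its 3' UTR held a run of 10 C. The coding sequence of Mdm4 held no CCCC, but its 5' UTR had 30.2 per kb, more than 95.0% of tested genes. Mdm2 had 1.36 per kb in its coding sequence and 10.2 per kb in its 5' UTR, where the median was 5.05.

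Across tested genes the log2 fold change went weakly with C content and more closely with length. Spearman's rho was 0.18 with the C content of the 3' UTR (n = 13292 genes), 0.32 with its CCCC density and 0.50 with transcript length (n = 13481 genes). These points share the same 6 libraries and overlapping base composition, genes are not independent replicates, and the values are descriptions. The part of length or base composition in the members' differences was not tested. With an offset for gene length, all 7 members had the same direction and call, and Cdkn1a stood at 2.39 and Mdm2 at −1.32.

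**Figure D4:**
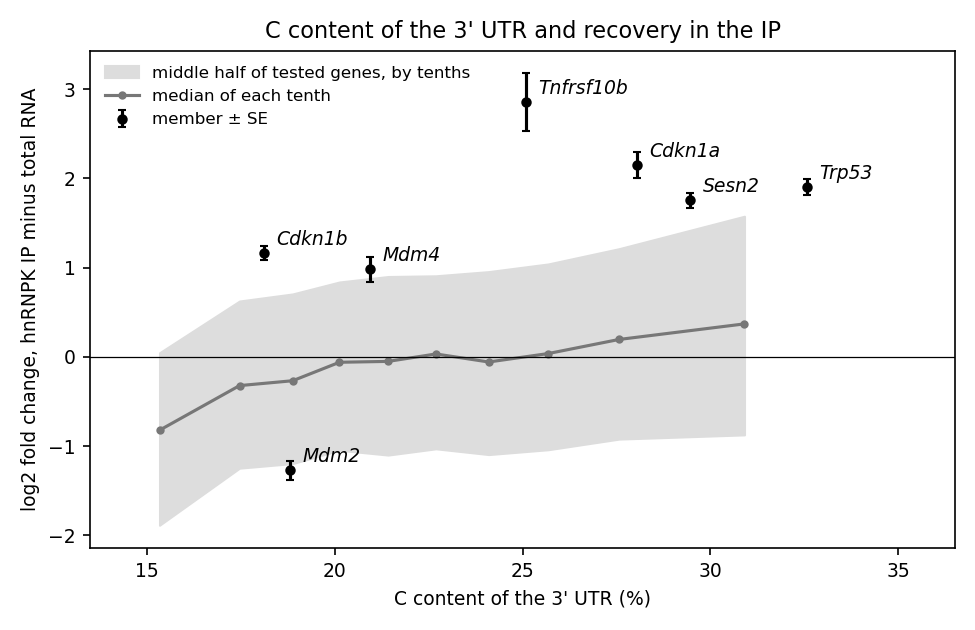
C content of the 3' UTR (%) against the log2 fold change, hnRNPK IP minus total RNA, of the 7 members (points, with SE, n = 3 libraries a group) over the medians (line) and the middle 50% (grey band) of 10 equal groups of tested genes ordered by C content. The group medians run from −0.82 at the lowest C content to 0.37 at the highest. Mdm2 at −1.27 lies just below the band, and the other members except Trp53 lie above its upper edge. Trp53 lies to the right of the band, which ends at 30.9% C, and above the upper quartile of its own group (1.58).

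Other genes of the pathway were mixed. Of 32 further p53 target genes, 6 (18.8%) were enriched, 19 (59.4%) depleted and 7 did not pass. Over all tested genes 28.9% were enriched and 33.6% depleted. The list's median log2 fold change was −0.52, beside −0.07 over all tested genes. Highest were Zmat3, an RNA-binding protein of the p53 response, at 2.55 ± 0.28, Tigar, which restrains glycolysis, at 2.36 ± 0.09, and Eda2r, a receptor of the TNF family, at 1.66 ± 0.23 (log2 fold change ± SE). Lowest were Rps27l, a relative of a ribosomal protein gene, at −4.89 ± 0.33, Triap1, an inhibitor of apoptosis, at −2.96 ± 0.42, and the pore-forming Bax at −2.80 ± 0.27. Bax averaged 5.86 ± 1.82 CPM over IP libraries and 41.0 ± 9.20 CPM over total RNA libraries (SD, n = 3 each). For Tigar the IP libraries averaged 327 ± 20.0 CPM and the total RNA libraries 63.7 ± 0.502 CPM. The longest transcripts had a median length of 4656.5 nt among the 6 enriched targets and 2512 nt among the 19 depleted ones, and the part of length was not tested. Under library totals alone the list's median was −0.95, and under the length offset it was −0.35, with Triap1 at −1.93. The median over all tested genes was −0.51 under library totals alone and 0.05 under the length offset.

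Among 24 tested regulators of p53, 7 (29.2%) were enriched and 10 (41.7%) depleted, beside 28.9% and 33.6% of all tested genes. The median of these regulators was −0.14. That median was −0.43 without IP library 2, −0.57 under library totals alone and −0.53 under the length offset. Trp63, a relative of Trp53 named after its values were seen, had too few reads to be tested. The kinase Hipk2, which phosphorylates p53, stood at 2.84 ± 0.28, the inhibitor of p53-driven apoptosis Ppp1r13l at 2.72 ± 0.15 and the acetyltransferase Ep300 at 2.18 ± 0.15 (log2 fold change ± SE). At the low end Cdkn2a, which encodes Arf, a protein that sequesters Mdm2, and the kinase inhibitor p16, was at −2.67 ± 0.18, from 16.9 ± 3.50 CPM over IP libraries and 108 ± 14.1 CPM over total RNA libraries (SD, n = 3 each). Rchy1, another ubiquitin ligase of p53, was at −2.28 ± 0.19, and Rpl11, a ribosomal protein that binds Mdm2, at −3.15 ± 0.70 on only 0.443 ± 0.339 CPM (IP) and 3.97 ± 1.04 CPM (total RNA). Under the length offset Cdkn2a was at −1.57. Reads of Rpl11 may be shared with pseudogenes, and its value is uncertain.

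Of 22 cell cycle genes, here other cyclin-dependent kinase inhibitors and partners of such inhibitors, 5 (22.7%) were enriched and 11 (50%) depleted (median −0.70). The shares over all tested genes were 28.9% and 33.6%. The longest transcripts of these cell cycle genes had a median length of 4925 nt when enriched and 2471 nt when depleted. The part of length was not tested. The repressor E2f4 at 1.98 ± 0.12, the D-type cyclin Ccnd2 at 1.97 ± 0.27 and the retinoblastoma gene Rb1 at 1.73 ± 0.14 were highest. The inhibitor Cdkn2d at −3.09 ± 0.35, Cks1b, a partner in p27 degradation, at −2.51 ± 0.19, and Pcna, the replication clamp that p21 binds, at −2.39 ± 0.17 were lowest (log2 fold change ± SE), with Cks1b at −1.43 under the length offset. Cdkn1c, the remaining inhibitor of the p21 family and named here after its values were seen, averaged 1.98 CPM over IP libraries and 1.65 CPM over total RNA libraries and did not pass.

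**Figure D5:**
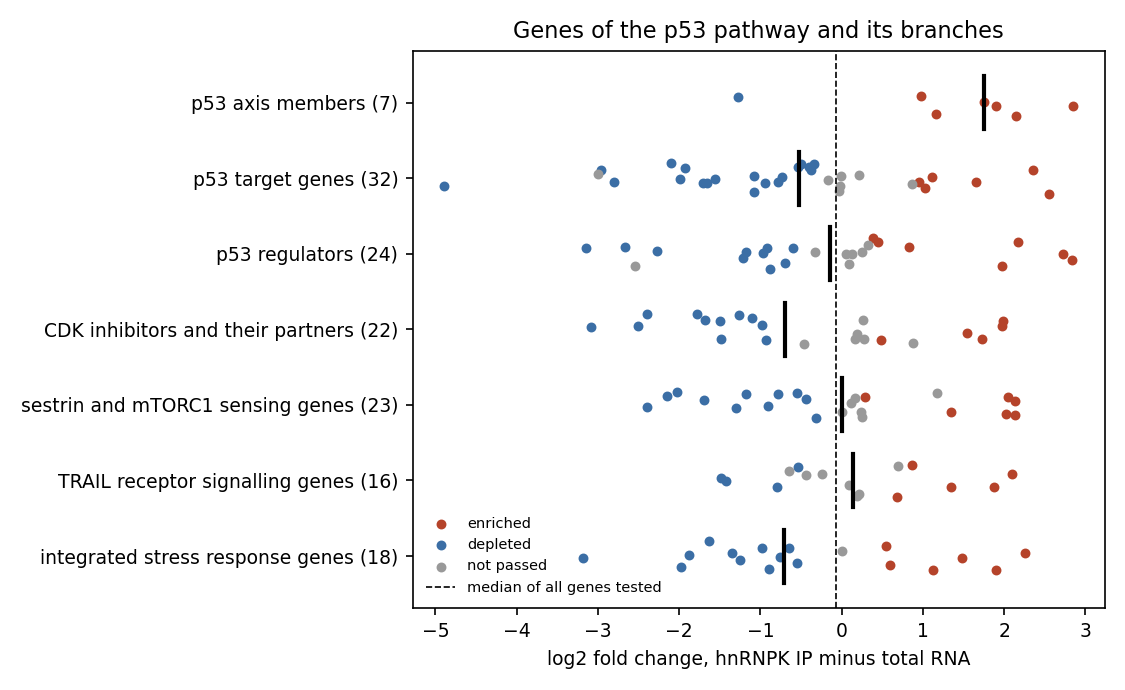
Log2 fold change, hnRNPK IP minus total RNA, of the tested genes of the members' list and 6 lists around them (number of genes in brackets), coloured by the edgeR call at adjusted p under 0.05. Black bars are list medians and the dashed line is the median of all tested genes at −0.07. The members' median of 1.75 and the medians of the sestrin and TRAIL genes lie right of it. The medians of the p53 targets, p53 regulators, cell cycle genes and stress response genes lie left of it.

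The surroundings of Sesn2 and Tnfrsf10b were also mixed. Of 23 genes of sestrin and mTORC1 amino acid sensing, 6 (26.1%) were enriched and 11 (47.8%) depleted. Over all tested genes these shares were 28.9% and 33.6%. The sestrin list's median of 0.002 was −0.35 without IP library 1, −0.43 under library totals alone and −0.53 under the length offset. Sesn3 rose with Sesn2, at 2.14 ± 0.16, whereas Sesn1, named after its values were seen, was at −0.78 ± 0.14 (log2 fold change ± SE). Castor2, which is related to the arginine sensor Castor1, was at 2.13 ± 0.14 and the AMP-activated kinase subunit Prkaa1 at 2.05 ± 0.08, while Sec13 and Nprl2, subunits of the GATOR complexes, and the GTPase Rraga were lowest, at −2.40 ± 0.11, −2.15 ± 0.20 and −2.02 ± 0.18. Under the length offset Sesn3 was at 1.42, Nprl2 at −1.41 and Rraga at −1.09. Of 16 tested genes around the TRAIL receptor, 5 (31.2%) were enriched and 4 (25%) depleted, beside the same 28.9% and 33.6%. Their median of 0.14 was −0.017 without IP library 1 and −0.30 under library totals alone, which gave 7 depleted genes. Under library totals alone 7278 of all 16929 tested genes were depleted, and their median log2 fold change was −0.51. The ligand Tnfsf10 at 2.10 ± 0.25 and the adaptor Fadd at 1.87 ± 0.13 were enriched together with the receptor, as was the TNF receptor Tnfrsf1a at 1.35 ± 0.16. The apoptosis inhibitor Birc2 at −1.48 ± 0.16, its antagonist Diablo at −1.42 ± 0.13 and the kinase Ripk1 at −0.80 ± 0.12 were depleted, with Ripk1 at −1.23 under library totals alone.

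The integrated stress response is known to induce Sesn2 without p53 and, in human cells, TNFRSF10B. Of 18 of its genes, 6 (33.3%) were enriched and 11 (61.1%) depleted (median −0.70), beside 28.9% and 33.6% of all tested genes. Eif2ak1, the heme-regulated kinase of this response, at 2.26 ± 0.13, the factor Atf5 at 1.90 ± 0.16 and the cystine transporter Slc7a11 at 1.48 ± 0.18 were highest (log2 fold change ± SE). Nupr1 at −3.19 ± 0.33, Ddit3, which encodes the transcription factor CHOP, at −1.97 ± 0.28 and the asparagine synthetase Asns at −1.87 ± 0.09 were lowest. Under the length offset 7 genes of this list were depleted, its median was −0.24, Slc7a11 was at 0.80 and Ddit3 at −1.10. Of all 16908 genes tested with that offset, 5413 were depleted, and the median was 0.05. Enriched genes of the list had a median longest transcript of 4319 nt and depleted ones of 2019 nt, and the part of length was not tested.

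The gene nearest to each member was taken as the gene whose log2 CPM over the 6 libraries had the smallest Euclidean distance to it, among 12045 genes with a mean of at least 1 CPM, leaving out provisional symbols and mitochondrial genes. These were Wdr90 for Mdm2 (distance 0.19), Sept3 for Trp53 (0.20), Cnot6 for Mdm4 (0.17), Slc29a4 for Cdkn1a (0.21), Cdk16 for Cdkn1b (0.14) and Foxm1 for Sesn2 (0.22). Wdr90 averaged 51.4 ± 3.84 CPM over IP libraries and 121 ± 4.49 CPM over total RNA libraries (SD, n = 3 each). The nearest gene to Tnfrsf10b, Plcxd3, was further away (0.94), averaging 36.1 ± 13.9 CPM over IP libraries and 6.48 ± 3.07 CPM over total RNA libraries. Likeness over 6 libraries in which most genes differ between the groups is a description of level and direction.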

How the data were processed

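RNA immunoprecipitation sequencing here sets RNA held on hnRNPK antibody beads against lysate RNA. Per the labels' protocols, total RNA was taken from a 10% input, and lysate with 200 µg of protein went onto the antibody beads, which were washed in 350 mM KCl. The deposited files hold raw, whole-number read counts for each gene. The submitters' processing notes name TopHat2, featureCounts and the mm10 build. Versions, annotation release, strand setting and the selection of RNA before sequencing were not found in the labels. In each library 58.6% to 68.7% of counts from 1 to 20 were even, a pattern that counting both mates of a pair would give, so counts may overstate the number of fragments, and intervals or errors from counting cover counting error only.

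Symbols matched 53274 of 53379 identifiers in the GENCODE M21 annotation of the same build, which also gave lengths and sequences. Exons of Cdkn1a share 273 nt with an antisense annotation that has no row in the tables. No pair of libraries in a group agreed within sampling noise (chi-square per degree of freedom 6.08 to 113). Counts were tested with edgeR 4.0.16 in R 4.3.3 (TMM factors, filterByExpr with minimum count 10 and minimum total 15, quasi-likelihood F test on group, Benjamini-Hochberg adjustment over 16929 genes, called under 0.05). Ratios of 2 members were tested with scipy 1.17.1. The members and gene lists were chosen with earlier results of these data known. Named genes are the members, Hnrnpk, Jund, Ddx3x, the nearest gene to each member, and up to 3 highest and 3 lowest called genes of at least 1 CPM from each list; any other is said to be chosen after its values were seen. Alternatives were size factors or library totals in place of TMM, no filter, DESeq2 1.42.0, limma-voom (limma 3.58.1), halved counts, a replicate block, an offset for gene length, and leaving out each library.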

Additional observations from a re-analysis of the deposited data

How the results depend on the processing

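All 7 members had the same direction and call in all 14 alternatives of the fit. Of these, 6 left out 1 library, and as the groups overlapped for no member, those 6 could hardly have reversed a direction. Leaving out 1 library at a time gave log2 fold changes of 1.82 to 1.99 for Trp53, −1.36 to −1.21 for Mdm2, 0.85 to 1.10 for Mdm4, 1.96 to 2.28 for Cdkn1a, 1.10 to 1.22 for Cdkn1b, 1.67 to 1.82 for Sesn2 and 2.54 to 3.08 for Tnfrsf10b. Enrichment is relative: with library totals alone the median of all genes shifted by −0.43, and 32.1% of calls were enriched in place of 46.3%, with 3447 genes enriched and 7278 depleted. The labels do not say whether the replicate numbers in the titles pair an IP library with a total RNA library. Same-numbered libraries correlated at 0.0009, −0.07 and 0.12 in their deviations from group means. No IP library correlated best with its own number, but IP library 3 came close (0.122 with total RNA library 2, 0.12 with its own). With 3 libraries a group and noisier IP libraries, such correlations cannot decide whether the libraries are paired. A replicate block gave 4384 enriched and 5364 depleted genes, 1.90 for Trp53, −1.28 for Mdm2, 0.97 for Mdm4, 2.14 for Cdkn1a, 1.16 for Cdkn1b, 1.75 for Sesn2 and 2.76 for Tnfrsf10b, and changed no call among the members.

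List medians moved as follows, and the cause was not tested. For p53 targets the median was −0.95 with library totals alone, −0.64 with limma-voom and with the replicate block, −0.35 with the offset for gene length and −0.67 to −0.47 with 1 library left out. For p53 regulators it was −0.57, −0.50 (limma-voom) and −0.53 (offset), and −0.43 to −0.019 with 1 library left out. With library totals alone it was −1.13 for cell cycle genes, −0.43 for sestrin genes, −0.30 for TRAIL genes (7 depleted) and −1.14 for stress response genes. The offset gave −0.53 for sestrin genes and −0.24 for stress response genes (7 depleted). With 1 library left out the medians were −0.35 to 0.13, −0.017 to 0.20 and −0.86 to −0.62 for the sestrin, TRAIL and stress response lists.

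Per kb of longest transcript, levels in the IP and in total RNA were 63.9 and 17.1 CPM for Trp53, 15.5 and 37.4 for Mdm2, 31.3 and 15.8 for Mdm4, 546 and 123 for Cdkn1a, and 13.3 and 1.84 for Tnfrsf10b. In the transcript with the longest coding sequence, the 3' UTR of Mdm4 is 302 nt long with 14.9% C. Of 39 results for other named genes 37 kept their call, with Hnrnpk and Ddx3x as exceptions, and none reversed. With 1 library left out, the difference in log2 count ratio was −3.27 to −3.10 for Mdm2/Trp53 and −2.31 to −2.20 for Mdm2/Mdm4. It was 0.85 to 1.15 for Cdkn1a/Cdkn1b, 3.23 to 3.64 for Cdkn1a/Mdm2 and 0.13 to 0.39 for Cdkn1a/Trp53, whose groups overlap. Where the groups do not overlap, leaving out a library cannot reverse the direction. Halving both counts barely changes a ratio, and the mean of same-numbered pairs equals the difference of group means, so neither is a separate check. Depth did not limit the members, the scarcest of which had 293 reads in its lowest library.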
